A study of Mus musculus with 26 samples.

Results

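The proteasome is the large protease that degrades proteins tagged with ubiquitin. Its core is a barrel of stacked alpha and beta rings whose catalytic beta subunits cut the substrate, and its regulatory cap has a base, with a ring of ATPases that unfold the substrate, and a lid that removes ubiquitin. The oocyte stores messages for much of this machinery, and after fertilisation the embryo degrades many maternal proteins and starts to transcribe its own genome at the 2-cell stage. The genes described here are the 39 of 24412 listed gene symbols that consist of Psma, Psmb, Psmc or Psmd and a number. They are 19 core genes (Psma and Psmb) and 20 regulatory genes (Psmc and Psmd). The core holds 7 alpha ring genes, 4 beta ring genes without an active site, 3 catalytic beta genes and 5 tissue-specific variants. The regulatory genes are 6 base ATPases, 3 other base subunits, 8 lid subunits and 3 chaperones of base assembly (Psmd5, Psmd9 and Psmd10), which leave the particle once it is finished.

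RNA was sequenced in 26 libraries of C57BL/6J mouse oocytes and embryos, in 13 groups of 2. The mDKO (maternal double knockout) groups come from females homozygous for floxed Kdm3a and Kdm3b (Kdm3a f/f; Kdm3b f/f), genes of demethylases of histone H3 lysine 9, in which Zp3-Cre deletes both during oocyte growth. IVF used wild-type sperm, so the embryos lack the maternal supply only and keep a paternal copy of each gene. The labels call the comparison group control and do not give its alleles. Without injection there are mDKO and control groups of MII (unfertilised) oocytes, of early 2-cell embryos, called E2C, and of late ones, called L2C. In their titles the L2C samples carry DKO, and in the genotype label maternal DKO. Injected E2C embryos are mDKO with Kdm3aWT, mDKO with Kdm3aHA, mDKO with mCherry (a red fluorescent protein used as injection control) and control with mCherry. Injected wild-type 4-cell embryos (4C) received Kdm3aWT, Kdm3aHA or mCherry. The labels do not spell out HA. A library pools 12 to 20 embryos, per the labels. Nothing in them says that replicate pools had separate parents, so p-values reflect only how these libraries vary, which may be technical.

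Values are TPM, each transcript's share of the library after correction for its length, so levels may be compared between genes within a library. TPM does not preserve read depth, which is therefore unknown, and counting error cannot be given. For 9 members the annotation of mouse build GRCm38 holds a near-identical transcript of another gene (Psma3, Psma4, Psma5, Psmb3, Psmb5, Psmc1, Psmd1, Psmd2 and Psmd11), and none of those copies has values here, so their levels are less certain. Exons of 7 members overlap those of another listed gene: Psmb5 on the same strand as Mir686, and Psma4, Psmb7, Psmb9, Psmc3, Psmd1 and Psmd13 on the strand opposite their neighbour. Between 7649 and 12396 genes reached 1 TPM per library, and replicates of a group correlated across genes at an r of 0.945 to 0.991. The second 4C mCherry library had the fewest genes and belonged to the pair with the lowest r. In bulk RNA, less message per embryo and more of every other message cannot be told apart. Kdm3a stood at 0.725 and 0.718 TPM in mDKO and 8.08 and 8.83 TPM in control MII oocytes, and Kdm3b at 1.75 and 1.87 against 26.6 and 25.0 TPM. In L2C embryos, whose own genome is active, Kdm3a stood at 28.4 and 26.3 TPM in mDKO and 34.1 and 43.8 TPM in control. Among injected mDKO E2C embryos the levels were 4122 and 2315 TPM with Kdm3aWT, 4043 and 3907 TPM with Kdm3aHA, and 0.262 and 0.411 TPM with mCherry. All 8 oocyte markers (Zp1, Zp2, Zp3, Gdf9, Bmp15, H1foo, Oosp1 and Bcl2l10) and, at E2C and L2C, all 8 markers of the 2-cell embryo were above 0 in every library.

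The 31 genes that encode parts of the standard particle (14 core and 17 regulatory) were expressed far from equally before the 4-cell stage. Over the 20 libraries of that span, MII to L2C with the injected E2C embryos, medians within the alpha ring ran from 952 TPM for Psma2 to 48.7 TPM for Psma3, and among beta genes without an active site from 679 TPM for Psmb2 to 33.0 TPM for Psmb4. Of the catalytic genes, Psmb6 (caspase-like site) had a median of 343 TPM, Psmb7 (trypsin-like site) 47.5 TPM and Psmb5 (chymotrypsin-like site) 9.90 TPM. Among base ATPases the medians ran from 164 TPM for Psmc5 to 21.6 TPM for Psmc3. Among the other base subunits the ubiquitin receptor Psmd4 stood at 254 TPM and the scaffold Psmd2 at 60.3 TPM. In the lid Psmd11 had the highest median, 121 TPM, and Psmd13 the lowest, 1.18 TPM. Psmd13, whose exons overlap those of Sirt3 on the other strand, reached 1 TPM in 18 of the 26 libraries, and every other of the 31 did so in all 26. Since the strand setting of the counting is not given, reads of Psmd13 and Sirt3 cannot be told apart in libraries without strand.

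The spread among the 31 was wider at MII and E2C than at L2C. In mDKO libraries the ratio of the highest gene, Psma2 each time, to the lowest, Psmd13, was 1028 in the first and 310 in the second library at MII, 14640 and 2385 at E2C, and 153 and 105 at L2C. These mDKO ratios rest on Psmd13, which was at 1.23 and 3.66 TPM at MII and 0.0707 and 0.503 TPM at E2C. In control embryos the highest gene stood, on group means, 358 times above the lowest at MII (Psma2 at 1004 TPM, Psmd13 at 2.81 TPM), 626 times at E2C (Psmb2 at 905 TPM, Psmd13 at 1.45 TPM) and 64.1 times at L2C (Psmb1 at 786 TPM, Psmd13 at 12.3 TPM). With Psmd13 left out, the ratio in a library ran from 198 to 294 at MII, from 121 to 206 at E2C without injection and from 21.9 to 58.8 at L2C, over both genotypes. In 4C embryos with mCherry it was 45.2 in the first and 181 in the second library, and among the 14 core genes alone 5.13 on the group means, from 376 TPM for Psmb4 to 1929 TPM for Psma6. The coefficient of variation among the 31 was 226% in mDKO and 212% in control oocytes, 146% and 140% at E2C, and 86.3% and 90.8% at L2C. These are descriptions, and the 4C table was deposited apart from the others, so no test was made between them. MII and E2C libraries were made with different kits and the L2C kit is not named, so stage and kit cannot be told apart in these spreads.

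**Figure D1:**
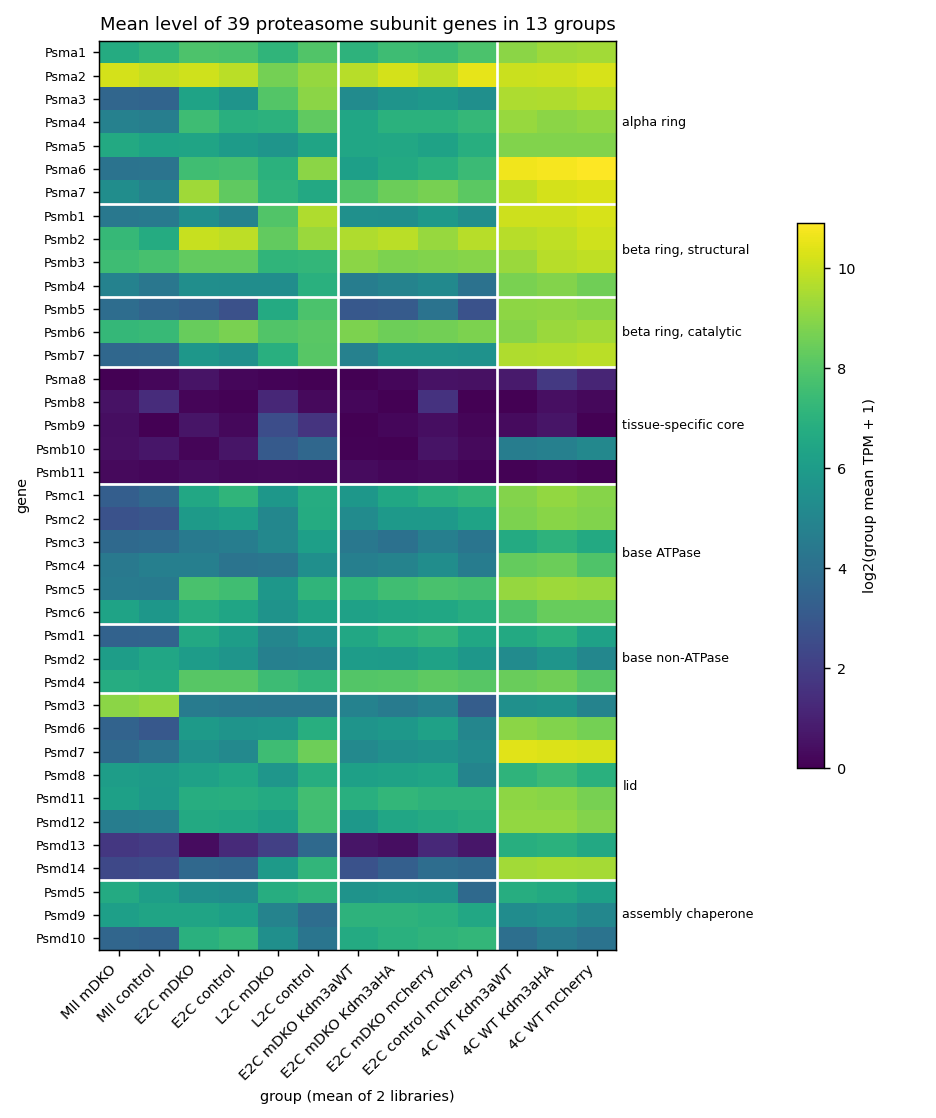
Mean level of each of the 39 genes (rows, ordered by role) in each of the 13 groups (columns), as log2 of the group mean TPM plus 1, with white lines between roles and between the separately deposited tables. Psma2 is bright in every column, Psmd3 is bright at MII and dimmer from E2C on, and Psma8 and Psmb11 are dark throughout, while Psmb10 is dark up to E2C and brighter at L2C and 4C.

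Of the tissue-specific core genes, 4 stayed low in every group, and Psmb10 was low up to E2C. Psmb11, of the thymus proteasome, did not reach 1 TPM in any of the 26 libraries, and Psma8, of the testis proteasome, did so in 4, with a highest value of 3.01 TPM. Of the immunoproteasome genes, Psmb8 and Psmb9 reached 1 TPM in 4 libraries each and Psmb10 in 10. Psmb10 was at 0.175 and 0.519 TPM in mDKO and 0.367 and 0.818 TPM in control oocytes, and at 5.77 and 9.30 TPM in mDKO and 8.97 and 14.4 TPM in control L2C embryos. Its 4C values were 28.3 and 19.3 TPM with Kdm3aWT, 21.9 and 30.5 TPM with Kdm3aHA and 34.3 and 31.3 TPM with mCherry, below every standard catalytic gene in those libraries.

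Summed over the 39 genes, proteasome message was 3361 and 3207 TPM in mDKO and 3198 and 3039 TPM in control oocytes, and 5701 and 6249 TPM in mDKO and 5398 and 4930.4 TPM in control E2C embryos. At L2C it was 3633 and 3646 TPM in mDKO against 6996 and 6719.9 TPM in control embryos. The sum thus lay between 3039 and 3361 TPM at MII in both genotypes, while at L2C both mDKO libraries stood below both control libraries. With 2 libraries a group an exact permutation test of such a sum cannot give a p under 0.333. Core genes made up 64.0% and 62.0% of the sum in mDKO and 59.7% and 59.2% in control oocytes, 71.7% and 73.7% against 69.8% and 69.4% at E2C, and 66.4% and 67.7% against 70.6% and 69.0% at L2C. The mDKO libraries were thus above the controls in core share at MII and E2C and below them at L2C.

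**Figure D2:**
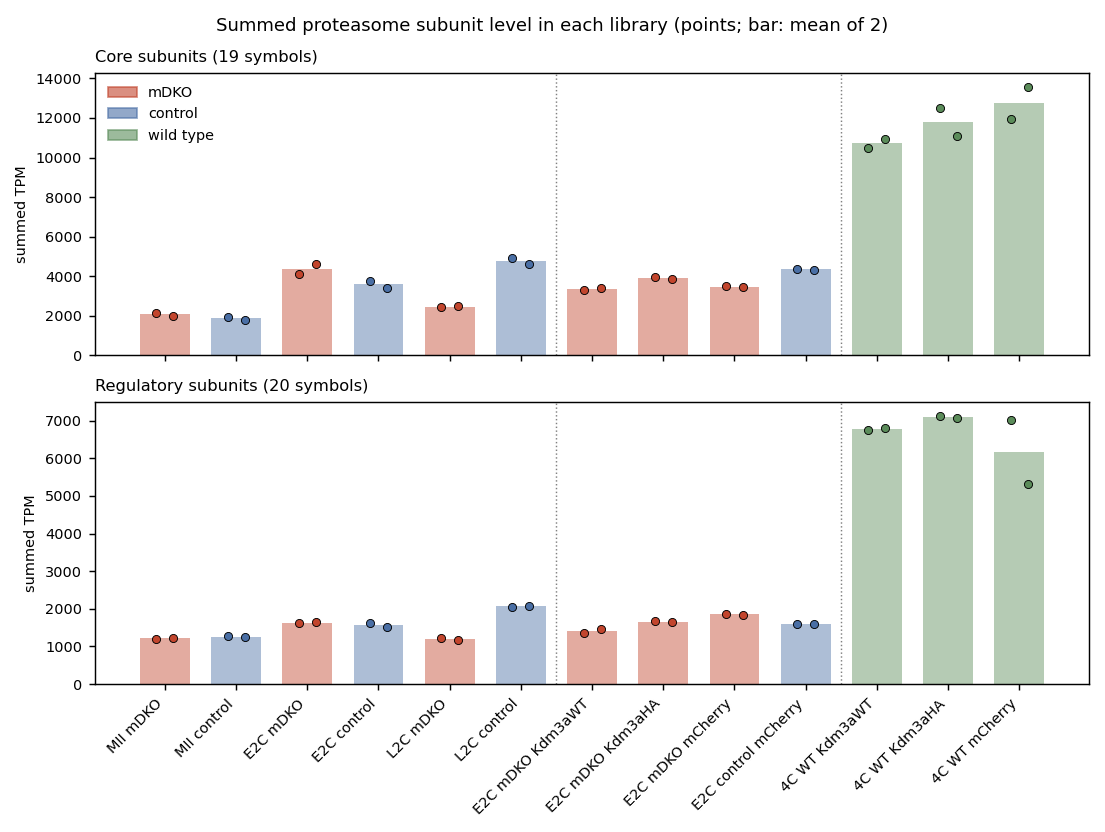
Summed TPM of the 19 core genes (top) and the 20 regulatory genes (bottom) in each library (points) and group (bar: mean of 2), with dotted lines between the separately deposited tables. At L2C the mDKO core sums of 2413 and 2467 TPM lie below the control sums of 4937 and 4635 TPM, and the second 4C mCherry library, with 5323 TPM, is the lowest of the 4C libraries in regulatory genes.

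In control embryos most subunit genes were higher at E2C than at MII, in core and cap alike, and a lid gene was the main exception. Tests here used limma on log2(TPM + 1) over all genes with at least 1 TPM in at least 2 libraries of the fit, with Benjamini-Hochberg adjustment over those genes and calls at an adjusted p under 0.05. Fold changes are log2 with standard errors after ±, on the scale of log2(TPM + 1), which understates changes of low genes. Of the 39 members 37 passed the filter in the fit of the 12 libraries without injection, Psmb9 and Psmb10 through their L2C libraries alone. Between E2C and MII controls, 25 were called higher and 6 lower, with a median log2 fold change of 0.96; of all 14316 genes tested 35.1% were called higher and 37% lower, with a median of 0.03. Core genes had 11 of 17 higher and 2 lower, and regulatory genes 14 of 20 higher and 4 lower.

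Psma6, an alpha ring gene (chr12:55384222-55418459, plus strand, GRCm38.p6), was at 207 and 199.6 TPM in E2C and 16.3 and 18.4 TPM in MII controls, a log2 fold change of 3.48 ± 0.12 (adjusted p = 1.27e-09). Psma7 (3.40 ± 0.24), Psmb2 (3.10 ± 0.12), and the ATPases Psmc1 (3.47 ± 0.20), Psmc2 (3.28 ± 0.17) and Psmc5 (3.12 ± 0.14) were of like size. The chaperone Psmd10, also known as gankyrin, had the highest of all, 3.74 ± 0.22, with 152 and 142 TPM in E2C against 12.1 and 8.36 TPM in MII controls. Psmd3, a lid scaffold gene (chr11:98682554-98695978, plus strand), was at 18.3 and 20.6 TPM in E2C and 609 and 594 TPM in MII controls, where it was the most abundant regulatory gene. Its log2 fold change of -4.88 ± 0.24 had an adjusted p of 1.04e-08. The other 5 lower genes were Psmb8 (-1.12 ± 0.40), Psmb5 (-0.91 ± 0.22), Psmd5 (-0.84 ± 0.15), Psmd2 (-0.80 ± 0.19) and Psmc4 (-0.51 ± 0.14). Psmb8 was at 0 and 0.104 TPM in E2C and 0.384 and 2.78 TPM in MII controls, so its call rests on the second MII control library. It passed the filter through that library and the second L2C mDKO library (1.86 TPM). Psmb6 (1.36 ± 0.13), Psmb7 (1.89 ± 0.25) and the lid deubiquitinase Psmd14 (1.03 ± 0.22) were higher, while Psmd9 (-0.19 ± 0.13), Psmb9 (0.21 ± 0.32) and Psmb10 (-0.03 ± 0.29) were not called.

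In mDKO embryos 24 of 37 members were higher and 4 lower at E2C than at MII, with a median of 1.06, beside 31.7% and 35.5% of all genes. Psma7 had the highest value, 4.03 ± 0.24, ahead of Psma6 (3.42 ± 0.12), Psmc1 (3.35 ± 0.20) and Psmd10 (3.34 ± 0.22), and Psmd3 again the lowest, -4.51 ± 0.24. Psmd13 (-1.35 ± 0.34), Psmd5 (-1.22 ± 0.15) and Psmb5 (-0.57 ± 0.22) were lower too. Psmb6 (1.08 ± 0.13), Psmb7 (2.15 ± 0.25) and Psmd14 (1.34 ± 0.22) were higher, and Psmd9 (0.20 ± 0.13), Psmb8 (-0.39 ± 0.40), Psmb9 (0.18 ± 0.32) and Psmb10 (-0.28 ± 0.29) were not called. The MII libraries were made with another kit (TruSeq Stranded mRNA) than the E2C libraries (SMART-Seq mRNA LP or the older SMART-Seq v4), so stage and kit cannot be told apart in either comparison. Which E2C library had which of its kits is not given. In the difference of the mDKO effect between the stages, E2C minus MII, 1 of 37 members was called higher and 0 lower, beside 1.72% and 2.16% of all genes: Psmc4, a base ATPase, at 0.84 ± 0.20 (limma, adjusted p = 0.0406). It was called without the second E2C mDKO library, and not when any of the other 7 libraries of these groups was left out, nor with a pseudocount of 0.1 or size-factor scaling.

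At L2C the control embryos had higher levels of many subunit genes than at E2C, while 2 of the 3 chaperones and part of the base were lower. Between L2C and E2C controls 19 of 37 members were called higher and 11 lower, with a median of 0.57, beside 35.5% and 30.1% of all genes. Psmb9 and Psmb10 are among the higher genes and passed the filter through L2C alone; the other 35 had 17 higher and 11 lower, with a median of 0.41. No label names the kit of the L2C libraries. Psmb5 (chr14:54614120-54617995, minus strand), which had been the least abundant core gene of the 31 at E2C, was at 207 and 240.4 TPM in L2C against 7.07 and 4.02 TPM in E2C controls, a log2 fold change of 5.14 ± 0.22 (adjusted p = 1.23e-08). Psmb1 (chr17:15475721-15498276, minus strand) was at 878 and 694 TPM in L2C against 27.7 and 29.6 TPM in E2C controls (4.72 ± 0.18). Psmd14 was at 163 and 127 TPM against 8.91 and 12.4 TPM (3.66 ± 0.22), and Psma3 (3.37 ± 0.20), Psmd7 (3.37 ± 0.25), which pairs with Psmd14 in the lid, Psmb7 (2.60 ± 0.25) and Psmd13 (2.46 ± 0.34) were higher as well. All 6 lid genes called were higher.

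The chaperones Psmd10 (-2.95 ± 0.22) and Psmd9 (-2.27 ± 0.13) had the lowest values of this comparison, while the third chaperone, Psmd5, was higher (1.81 ± 0.15). Psma7 (-1.74 ± 0.24), Psmb3 (-1.09 ± 0.18), Psmb6 (-0.62 ± 0.13) and all 3 base subunits that are not ATPases, Psmd4 (-0.89 ± 0.13), Psmd2 (-0.85 ± 0.19) and Psmd1 (-0.49 ± 0.20), were lower. Psmb8 was not called (0.19 ± 0.40), and Psmb10 and Psmb9, which passed through L2C, had 3.002 ± 0.29 and 1.38 ± 0.32.

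In mDKO embryos more members were lower than higher in the same step. Between L2C and E2C mDKO embryos 11 of 37 members were called higher and 21 lower, with a median of -0.44, beside 31.9% and 20.8% of all genes. Without Psmb10 (2.93 ± 0.29) and Psmb9 (1.99 ± 0.32), which passed the filter through L2C, 9 of 35 were higher and 21 lower. Psmb5 (3.37 ± 0.22), Psmb1 (2.50 ± 0.18), Psmd14 (2.24 ± 0.22) and Psmd7 (2.03 ± 0.25) were higher. All 6 other alpha ring genes were lower beside Psma3 (1.65 ± 0.20), led by Psma7 (-2.28 ± 0.24), and 5 of the 6 ATPases were lower, led by Psmc5 (-2.02 ± 0.14). Psmb2 (-1.70 ± 0.12), Psmd1 (-1.60 ± 0.20), Psmd9 (-1.47 ± 0.13), Psmd10 (-1.46 ± 0.22) and Psmb6 (-0.43 ± 0.13) were lower, while Psmb7 (1.07 ± 0.25) and Psmd5 (1.35 ± 0.15) were higher and Psmb8 was not called (1.03 ± 0.40). The test of the difference between the genotypes in this step is the interaction given with the L2C results.

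In MII oocytes no subunit gene was called between mDKO and control. Of the 39 members 34 passed the filter, 0 were higher and 0 lower in limma's test, and the median log2 fold change was 0.01, beside 0.845% higher and 3.41% lower of 10765 genes and a median of -0.05. At an unadjusted p under 0.05 there were 10 of the 34 members, beside 24.7% of all genes. Psmb2, at 162 and 151 TPM in mDKO and 112 and 97.1 TPM in control oocytes, came nearest, with 0.58 ± 0.11 and an adjusted p of 0.0505. Psmb2, picked as the nearest to a call, was above its controls in both mDKO oocyte libraries, which is no further test. The values of the catalytic genes were 0.31 ± 0.19 for Psmb5, -0.10 ± 0.08 for Psmb6 and 0.04 ± 0.34 for Psmb7, and that of Psmd14 was -0.13 ± 0.22. The chaperones stood at 0.52 ± 0.15 for Psmd5, -0.20 ± 0.10 for Psmd9 and 0.11 ± 0.30 for Psmd10. Psma8, Psmb8, Psmb9, Psmb10 and Psmb11 did not pass the filter. No label pairs the MII libraries. With a replicate block, which pairs same-numbered ones, 8 members were called higher and 2 lower, beside 8.17% and 11.7% of all genes.

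In E2C embryos without injection 3 alpha ring genes were higher and 1 ATPase gene lower in mDKO than in control. Of 34 members that passed the filter, Psmd13 among them through the control libraries alone, 3 were called higher and 1 lower, with a median of 0.17, beside 5.38% and 8.99% of 11140 genes and a median of -0.01. Psma7 (chr2:180036367-180042464, minus strand) was at 611 and 711 TPM in mDKO against 322 and 284 TPM in control embryos, a log2 fold change of 1.12 ± 0.13 (limma, adjusted p = 0.00158). Psma4 was at 175 and 190.1 TPM against 124 and 113 TPM (0.62 ± 0.14, adjusted p = 0.0219), and Psma3 at 71.0 and 89.8 TPM against 52.7 and 44.6 TPM (0.71 ± 0.18, adjusted p = 0.0340). Psmc1 was at 96.0 and 90.3 TPM against 141 and 138 TPM (-0.58 ± 0.14, adjusted p = 0.0271). In these 4 genes, picked by their calls, the mDKO libraries did not overlap the controls, which is no further test.

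Leaving out either control library ended the calls of Psma3, Psma4 and Psmc1, with adjusted p between 0.119 and 0.305, while Psma7 stayed called. None of the 3 was called without a filter on low TPM either. The other 4 alpha ring genes were not called, nor were Psmb5 (0.64 ± 0.28), Psmb6 (-0.37 ± 0.13), Psmb7 (0.31 ± 0.16), Psmd14 (0.18 ± 0.24), Psmd5 (0.14 ± 0.16), Psmd9 (0.18 ± 0.15) and Psmd10 (-0.29 ± 0.14). The 5 tissue-specific genes did not pass the filter. In the same libraries the summed oocyte markers were 20592 and 19166 TPM in mDKO and 14863 and 15132 TPM in control. The 2-cell embryo markers were 285 and 320 TPM against 1257 and 1802 TPM, with 7 of 8 called lower. The part of these markers in the differences was not tested. In the separate injected E2C embryos with mCherry the alpha ring median was -0.45, beside 0.42 without injection. There 4 of the 7 alpha ring genes were called lower in mDKO and 1 higher, and Psma4 was not called (-0.29). The difference between the settings was not tested.

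In L2C embryos most subunit genes of both core and cap were lower in mDKO than in control embryos. Of the 39 members 36 passed the filter, and 25 were called lower and 2 higher, with a median log2 fold change of -0.96, beside 23.3% lower and 19.1% higher of 12606 genes and a median of 0.00. The core had 11 of 16 lower and 0 higher, with a median of -0.89, and the cap 14 of 20 lower and 2 higher, with a median of -0.99. Without the tissue-specific core genes and the chaperones the medians of core and cap were -0.99 and -1.08. By role, 6 of 7 alpha ring genes, 3 of 4 beta genes without an active site, 2 of 3 catalytic genes, all 6 ATPases, 1 of 3 other base subunits and 7 of 8 lid genes were lower. The 2 higher genes were both chaperones of base assembly. Of the 27 calls, 26 held without the first mDKO library or the second control library, in both cases without Psmd1 (-0.57 ± 0.18), and 27 held without either of the others.

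Psma6 was at 119.5 and 127 TPM in mDKO against 539 and 483 TPM in control L2C embryos, the largest difference of the family at -2.04 ± 0.11. Both mDKO libraries lay far below both controls. Psmb1 was at 250.003 and 238 TPM against 878 and 694 TPM (-1.67 ± 0.13, adjusted p = 2.77e-04), and Psmb4 at 38.6 and 41.4 TPM against 109.8 and 130.5 TPM (-1.56 ± 0.14, adjusted p = 3.89e-04). These are the core genes with the largest differences. In the cap, the ATPase Psmc2 (chr5:21785275-21803787, plus strand) was at 32.9 and 31.9 TPM against 104 and 107 TPM (-1.67 ± 0.13, adjusted p = 2.41e-04). Psmd13 was at 2.59 and 3.84 TPM against 11.5 and 12.995 TPM (-1.67 ± 0.24), and Psmc5 at 49.1 and 58.4 TPM against 149.9 and 134 TPM (-1.39 ± 0.14). In each of these genes, picked by size of difference, both mDKO libraries lay below both controls, which is no further test.

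The catalytic genes differed among themselves. Psmb5 was at 95.1 and 109 TPM in mDKO against 207 and 240.4 TPM in control (-1.12 ± 0.13, adjusted p = 9.02e-04), and Psmb7 at 116 and 116 TPM against 303 and 239 TPM (-1.21 ± 0.14, adjusted p = 7.87e-04). Psmb6, at 242 and 246 TPM against 243 and 311 TPM, was not called (-0.17 ± 0.14). Its groups overlapped. Psmd14, the deubiquitinase of the lid, was at 70.7 and 52.0 TPM against 163 and 127 TPM (-1.23 ± 0.19, adjusted p = 0.00239).

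The chaperones split. Psmd10 (chrX:140948425-140956711, minus strand) was at 45.4 and 40.4 TPM in mDKO against 18.4 and 17.7 TPM in control (1.20 ± 0.15, adjusted p = 0.00115), and Psmd9 at 30.1 and 27.2 TPM against 13.2 and 14.8 TPM (0.98 ± 0.17, adjusted p = 0.00366). Both were among the 11 members called lower at L2C than at E2C in controls. Of those 11, Psma2, Psmb2, Psmc5 and Psmd1 were called lower in mDKO at L2C, and the rest were not called. Psmd5, at 116 and 103 TPM against 126 and 147 TPM, was not called (-0.31 ± 0.13). Also not called were Psma7 (0.58 ± 0.27), Psmb3 (-0.06 ± 0.21), Psmd2 (-0.08 ± 0.21), Psmd3 (0.00 ± 0.25) and Psmd4 (0.31 ± 0.13). Of the immunoproteasome genes, Psmb9 was at 6.39 and 3.69 TPM against 2.81 and 1.39 TPM (0.96 ± 0.34, adjusted p = 0.0569) and Psmb10 was not called (-0.57 ± 0.30). Psmb9 overlaps Tap1 on the other strand. Psmb8, at 0.786 and 1.86 TPM against 0.430 and 0 TPM, Psma8 and Psmb11 did not pass the filter.

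**Figure D3:**
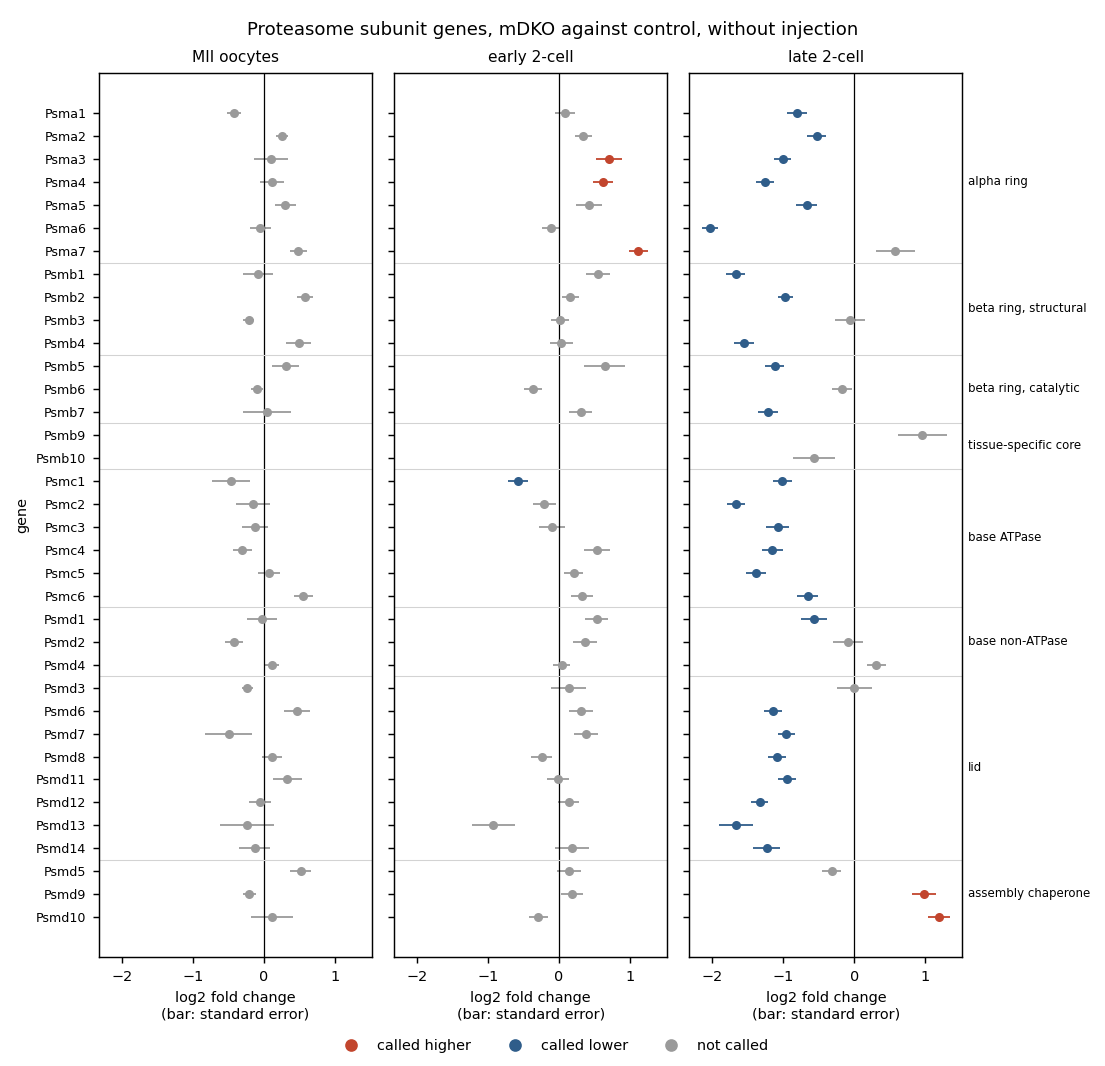
Log2 fold change of mDKO against control (points; bars: standard error) for each subunit gene that passed the filter, by role, in MII oocytes, early and late 2-cell embryos on 1 shared axis. At MII no gene is called, at E2C 3 alpha ring genes are called higher and Psmc1 lower, and at L2C 25 genes are called lower and Psmd9 and Psmd10 higher.

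The mDKO effect at L2C differed from that at E2C in most members. In the difference of the effects, L2C minus E2C, 23 of 37 members were called lower and 2 higher, with a median of -0.97, beside 12.5% and 13.2% of 14316 genes and a median of 0.09. Core and cap had medians of -1.09 and -0.95, and of -1.33 and -0.98 without the tissue-specific core genes and the chaperones. Psmb1 had the largest difference (-2.22 ± 0.25, limma, adjusted p = 2.42e-04), followed by Psma6 (-1.93 ± 0.17), Psma4 (-1.88 ± 0.22), Psmb5 (-1.76 ± 0.32), Psma3 (-1.72 ± 0.28) and Psmc4 (-1.69 ± 0.20). Psmb7 (-1.52 ± 0.36) and Psmd14 (-1.42 ± 0.31) were lower, and Psmd10 (1.49 ± 0.31) and Psmd9 (0.80 ± 0.18) were the 2 called higher. Psmc1, already lower at E2C, was not called (-0.44 ± 0.28), nor were Psma7 (-0.54 ± 0.33), Psmb6 (0.20 ± 0.18), Psmd5 (-0.46 ± 0.22), Psmb8 (0.85 ± 0.57), Psmb9 (0.61 ± 0.45) and Psmb10 (-0.07 ± 0.40). When 1 library was left out, between 21 and 25 of the 25 calls held, and Psmc3, Psmd1, Psmd7, Psmd8 and Psmd11 were the ones lost at least once.

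Other markers moved in the same L2C libraries. Summed oocyte markers were 10474 and 11214 TPM in mDKO and 4032 and 3698 TPM in control, with 6 of 8 called higher and Zp3 lower, and the 2-cell embryo markers were 2665 and 2177 TPM against 904 and 681 TPM, with 8 of 8 higher. Cumulus and granulosa markers were 109.7 and 115 TPM against 58.9 and 66.7 TPM, with 2 of 6 tested called higher, and Ptx3 was at 0 in all 4 libraries. Of that sum Serpine2 made up 77.7 and 74.8 TPM in mDKO and 23.4 and 31.4 TPM in control. Sperm and spermatid markers were 15.7 and 15.1 TPM against 17.1 and 25.2 TPM. Leukocyte and blood markers were 91.0 and 424 TPM against 224 and 372 TPM. Of these 8 markers Hbb-bs was at 0 in all 4 libraries and Ptprc in 3, while Hba-a1 was at 28.9 and 28.9 TPM in mDKO against 183 and 312 TPM in control and was called lower. Cd52 was at 43.8 and 154 TPM against 26.5 and 48.3 TPM, and Lyz2 at 6.25 and 205 TPM against 4.53 and 4.02 TPM. Their part in the proteasome result was not tested.

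**Figure D4:**
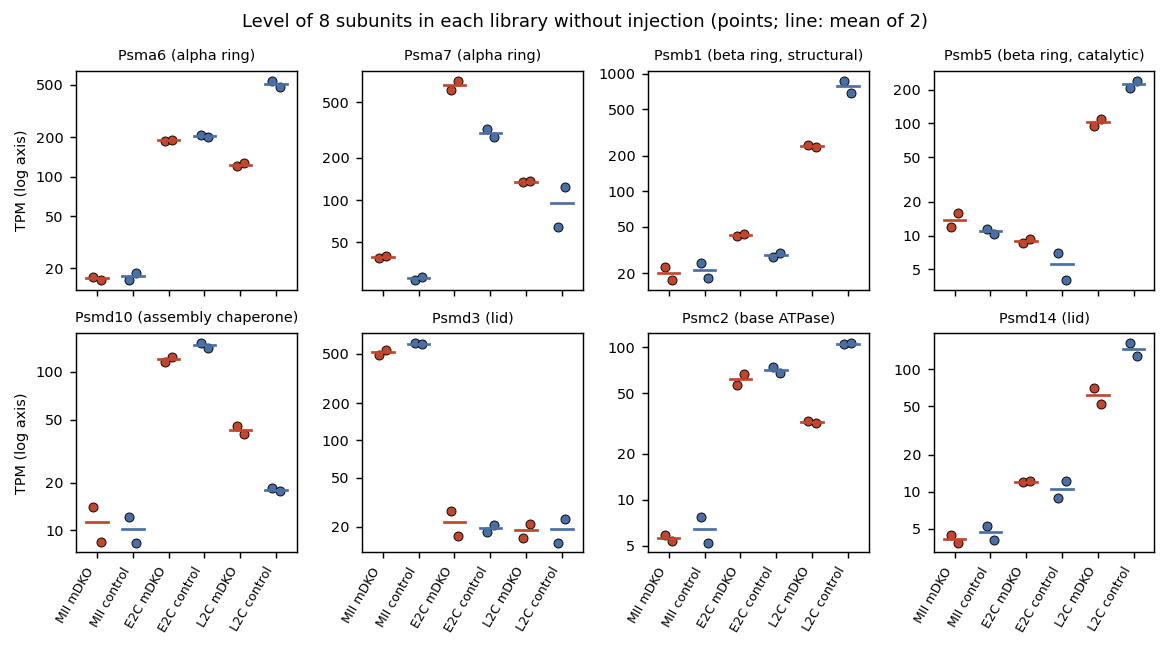
TPM of 8 subunit genes (log axes, a scale for each gene) in each library without injection (points; line: mean of 2), mDKO in red and control in blue. Psma6, Psmb1, Psmb5, Psmc2 and Psmd14 are lower in mDKO at L2C, Psmd10 is higher there, Psma7 is higher in mDKO at E2C, and Psmd3 stands at 487 to 609 TPM in oocytes of either genotype.

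Because most members were lower together at L2C, their promoters are shown for genes with large and small differences. The transcription factor Nfe2l1, which raises proteasome genes when proteasome activity is low, binds the antioxidant response element. Its letters, TGACNNNGC, were searched on both strands in the 250 bases before each start in RefSeq, build GRCm38.p6, the same assembly as mm10, where 32 of the 39 members had a window. Of the genes with the element, Psmb5 had the largest L2C difference in the core and Psmd12, a lid gene, in the cap. Psmb3, without the element, had the smallest difference in the core (-0.06). Psmd3 had the smallest in the cap and is named only, since it had no window to search. Psma8, Psmb1, Psmb2, Psmb7, Psmc3 and Psmd7 had none either. Of the 25 genes called lower at L2C, 20 had a window. Capitals mark the element, which lies 47 bases before the start in Psmb5 and, read on the other strand, 247 bases before it in Psmd12. The windows are chr14:54617996-54618245 (minus strand) for Psmb5, chr11:107479278-107479527 (plus strand) for Psmd12 and chr11:97703184-97703433 (plus strand) for Psmb3, written 5′ to 3′ along the gene.
Psmb5: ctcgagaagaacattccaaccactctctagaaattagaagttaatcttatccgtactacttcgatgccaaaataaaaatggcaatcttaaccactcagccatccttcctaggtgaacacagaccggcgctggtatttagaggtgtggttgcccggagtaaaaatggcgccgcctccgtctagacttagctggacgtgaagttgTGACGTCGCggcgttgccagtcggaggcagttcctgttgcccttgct
Psmd12: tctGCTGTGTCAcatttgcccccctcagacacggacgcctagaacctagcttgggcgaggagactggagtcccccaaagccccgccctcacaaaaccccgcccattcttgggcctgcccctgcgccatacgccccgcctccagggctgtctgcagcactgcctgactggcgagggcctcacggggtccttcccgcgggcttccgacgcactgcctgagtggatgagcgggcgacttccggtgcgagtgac
Psmb3: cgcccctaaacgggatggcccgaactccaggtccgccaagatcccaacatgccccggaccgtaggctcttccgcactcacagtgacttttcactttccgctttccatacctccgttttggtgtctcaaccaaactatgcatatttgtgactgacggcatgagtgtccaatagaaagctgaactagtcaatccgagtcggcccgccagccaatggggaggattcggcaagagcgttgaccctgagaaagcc

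The element was found in 5 of the 32 members (Psmb5, Psmb6, Psmc6, Psmd9 and Psmd12), in 14.7% of their 34 windows and in 10.2% of all 32851 windows. Among the members tested at L2C with a window, 3 of 5 with it were lower and 1 higher (median -0.66), and 17 of 25 without it were lower and 1 higher (median -0.94). The ETS factor motif CCGGAAGT was in 4 members, all of the cap (Psmc1, Psmc2, Psmd6 and Psmd12), in 14.7% of their windows and 2.88% of all windows. All 4 were lower (median -1.24), against 16 of 26 without it (median -0.66). The NF-Y motif CCAAT was in 13 members (38.2% of windows, 33.8% of all), the nuclear respiratory factor motif GCGCATGCG in 1 (2.94% and 1.45%) and the YY1 motif AAGATGGCG in 0 (0.606% of all windows). These matches describe letters in the windows and are not sites.

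Among pathway genes outside the naming rule, calls at L2C went in both directions. Of 43 such genes 42 were tested, with 16 lower and 9 higher and a median of -0.23, beside 23.3% lower and 19.1% higher of all genes. Both further subunits of the particle were lower: the ubiquitin receptor Adrm1 was at 51.9 TPM in mDKO and 103 TPM in control on average (-0.98 ± 0.14), and Shfm1 at 495 against 836 TPM (-0.76 ± 0.10). Of 6 assembly and related factors, Psmg3 was lowest (-1.91 ± 0.20) and Pomp, which matures the core, was lower (-0.88 ± 0.12). The assembly factors Psmg4 (0.89 ± 0.18) and Psmg1 (0.60 ± 0.14) were higher, as was the related gene Akirin2 (0.43 ± 0.11). Of the activators, Psme2 was lower (-1.88 ± 0.17), and Psme4 (0.43 ± 0.12) and the inhibitor Psmf1 (0.63 ± 0.17) were higher.

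Rps27a, which encodes ubiquitin fused to a ribosomal protein, was lower (-1.47 ± 0.11), and Ubb, which encodes a chain of ubiquitin units, was higher (0.32 ± 0.10). In the list of transcriptional control, 3 of 8 were lower, Mafg (-1.16 ± 0.17), Bach1 (-1.15 ± 0.20) and Mafk (-1.04 ± 0.25), and Ngly1, an enzyme that processes Nfe2l1, was higher (1.35 ± 0.16). The COP9 signalosome, a complex built like the lid, had 3 of 9 genes lower, Cops6 (-0.95 ± 0.11), Cops5 (-0.80 ± 0.19) and Cops7a (-0.63 ± 0.15), and 0 higher, with a median of -0.25. At MII 4 such genes were called, beside 0.845% of all genes higher and 3.41% lower. Among the 4 were Ubqln2 (-1.62 ± 0.11), a ubiquitin shuttle, and Psmg3 (-0.90 ± 0.16). At E2C Rps27a (-1.35 ± 0.18) and the COP9 gene Cops7b (-0.96 ± 0.24) were lower, beside 5.38% of all genes higher and 8.99% lower.

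In the injected E2C embryos with mCherry 9 of 20 cap genes were higher in mDKO than in control and none was called lower, while core genes were called in both directions. Of the 39 members 35 passed the filter in the fit of 8 libraries, and 14 were called higher and 5 lower, with a median of 0.19, beside 26.9% and 20% of 10960 genes and a median of 0.04. The core had 5 of 15 higher and 5 lower (median -0.09), and the cap had a median of 0.38, with 15 of its 20 values above 0 and a median of -0.08 over the 6 ATPases. Psmb8 and Psmd13 passed the filter through the mDKO mCherry libraries alone; without them 13 of 33 were higher and 5 lower, with a median of 0.13. Core genes made up 65.2% and 65.1% of the members' TPM in mDKO and 73.1% and 72.7% in control embryos with mCherry. The mDKO libraries were thus below the controls in core share, while at E2C without injection they were above them. Without the first or the second mDKO mCherry library fewer members were called than the 19 with all, and fewer of all genes. The members' medians were then 0.16 and 0.13, beside 0.02 and 0.03 over all genes.

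Psmd5 was at 51.5 and 46.3 TPM in mDKO against 11.1 and 13.8 TPM in control embryos with mCherry (1.8995 ± 0.13, limma, adjusted p = 1.59e-05). Psmd3 was at 26.7 and 28.3 TPM against 8.80 and 7.93 TPM (1.61 ± 0.19). The lid genes Psmd8 (1.504 ± 0.14) and Psmd6 (1.23 ± 0.14) were higher too. In Psmd5 and Psmd3, picked by their calls, both mDKO libraries lay above both controls, which is no further test. Psmd8 was at 89.5 and 80.4 TPM in mDKO against 33.9 and 25.3 TPM in control embryos with mCherry, and at 75.3 and 73.8 TPM against 93.8 and 83.3 TPM in the separate table without injection. In the core Psmb5 was at 18.9 and 14.9 TPM against 5.52 and 5.79 TPM (1.42 ± 0.19), Psmb4 at 34.6 and 36.4 TPM against 21.9 and 11.0 TPM (1.14 ± 0.25), and Psma7 was higher (0.52 ± 0.14).

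The lower genes were all of the core. Psma2 was at 898 and 923 TPM in mDKO against 1413 and 1465 TPM in control embryos with mCherry (-0.66 ± 0.10), followed by Psmb2 (-0.53 ± 0.08), Psma5 (-0.53 ± 0.14), Psma6 (-0.52 ± 0.15) and Psma1 (-0.45 ± 0.12). Psmd9 was higher (0.38 ± 0.09), and Psmb6 (-0.18 ± 0.10), Psmb7 (0.12 ± 0.16), Psmd14 (0.19 ± 0.21) and Psmd10 (-0.11 ± 0.10) were not called. Psmb8 was called higher: it was at 2.03 and 2.03 TPM in mDKO and listed at 0 in both control libraries with mCherry, so no fold is given. In those libraries summed leukocyte and blood markers were 466 and 307 TPM, against 14.5 and 8.78 TPM in control. Of the 8 markers Cd52 made up 432 and 288 TPM, Lyz2 30.6 and 18.0 TPM, Hbb-bs was at 0 and Ptprc at 0.163 and 0.477 TPM, and their part in the Psmb8 value was not tested. Psma8, Psmb9, Psmb10 and Psmb11 did not pass the filter. Summed oocyte markers were 24886 and 24745 TPM in mDKO and 16577 and 16847 TPM in control embryos with mCherry. The 2-cell embryo markers were 399 and 436 TPM in mDKO against 1586 and 1872 TPM in control, with 8 of 8 called lower. Cumulus and granulosa markers were 351 and 343 TPM against 85.6 and 77.9 TPM, with 3 called higher. Of that sum Serpine2 made up 312 and 307 TPM against 62.2 and 51.2 TPM, and it stood at 820 and 882 TPM in control MII oocytes. Cyp19a1 was at 20.2 and 17.9 TPM against 18.0 and 20.9 TPM, and Amh at 0 in all of these injected libraries. The part of all these markers in the differences was not tested.

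With Kdm3aWT the mDKO embryos had lower levels of many subunit genes than with mCherry. Of 35 members 16 were called lower and 1 higher, with a median of -0.47 (15 and 1 of 33, and -0.41, without Psmb8 and Psmd13, which passed through the mCherry libraries), beside 10.8% and 0.949% of all genes and a median over all genes of -0.19. With size-factor scaling, which brings that median to 0.00, 8 were lower and 1 higher, with a median of -0.24. Psmb5 was at 7.91 and 6.01 TPM with Kdm3aWT against 18.9 and 14.9 TPM with mCherry (-1.17 ± 0.19, limma, adjusted p = 0.00626), and Psmd14 at 7.35 and 4.30 TPM against 13.4 and 14.7 TPM (-1.18 ± 0.21, adjusted p = 0.01001). Psmc1 was at 52.5 and 55.8 TPM against 120.2 and 117 TPM (-1.12 ± 0.10, adjusted p = 3.65e-04). In these 3 genes, picked by their calls, the groups did not overlap, which is no further test.

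Psmb7 (-0.88 ± 0.16), Psmd12 (-0.83 ± 0.13), Psma6 (-0.79 ± 0.15) and Psmd10 (-0.41 ± 0.10) were lower with Kdm3aWT too, and Psmb2 was the 1 higher gene (0.39 ± 0.08). Psmb6 (0.17 ± 0.10), Psmd5 (-0.03 ± 0.13) and Psmd9 (0.16 ± 0.09) were not called. Psmb8 was at 0.262 and 0 TPM with Kdm3aWT against 2.03 and 2.03 TPM with mCherry. The 17 calls rest on both mCherry libraries: without 1 of them, far fewer members and far fewer of all genes were called. The members' median was -0.46 without the first mCherry library and -0.45 without the second, beside -0.18 and -0.19 over all genes. Without the first Kdm3aWT library fewer members and fewer of all genes were called too, with medians of -0.45 and -0.15. Oocyte markers summed to 26379 and 23772 TPM with Kdm3aWT against 24886 and 24745 TPM with mCherry. The 2-cell embryo markers were 669 and 776 TPM against 399 and 436 TPM, and leukocyte and blood markers 7.47 and 4.78 TPM against 466 and 307 TPM. Their part in the Kdm3aWT result was not tested.

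With Kdm3aHA 5 members were lower and 2 higher than with mCherry, with a median of -0.17, beside 9.29% and 1.54% of all genes and a median of -0.08. Psmb8 and Psmd13, both called lower, passed the filter through the mCherry libraries alone, and without them 3 of 33 were lower and 2 higher. Psmb5 was at 6.85 and 8.59 TPM with Kdm3aHA against 18.9 and 14.9 TPM with mCherry (-1.04 ± 0.19), and Psmc3 (-0.65 ± 0.17) and Psmc1 (-0.39 ± 0.10) were lower. Psmd13 was at 0.439 and 0.225 TPM with Kdm3aHA against 1.72 and 1.13 TPM with mCherry, and Psmb8 was listed at 0 in both Kdm3aHA libraries. With Kdm3aHA the 2-cell embryo markers were 526 and 569 TPM and leukocyte and blood markers 4.14 and 2.55 TPM, against the mCherry values above. Psmb2, at 859 and 916 TPM against 603 and 592 TPM (0.57 ± 0.08), and Psma2 (0.39 ± 0.10) were higher. Psmb6 (-0.09 ± 0.10), Psmb7 (-0.05 ± 0.16), Psmd14 (-0.59 ± 0.21), Psmd5 (0.08 ± 0.13), Psmd9 (0.16 ± 0.09) and Psmd10 (-0.17 ± 0.10) were not called. When 1 mCherry or Kdm3aHA library was left out, fewer than these 7 members were called, and fewer of all genes. The members' median then ran from -0.23 to -0.15. With size-factor scaling 2 were lower and 2 higher. The Kdm3aWT and Kdm3aHA comparisons share their mCherry libraries.

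Set against each other, Kdm3aWT embryos had 5 members lower and 0 higher than Kdm3aHA embryos, beside 1.97% and 1.32% of all genes: Psmb7 (-0.83 ± 0.16), Psmc1 (-0.73 ± 0.10), Psmd12 (-0.63 ± 0.13), Psma2 (-0.50 ± 0.10) and Psmc5 (-0.42 ± 0.09). Psmb7 was at 24.6 and 28.6 TPM with Kdm3aWT and 42.0 and 55.1 TPM with Kdm3aHA. The count was 1 with size-factor scaling. It fell without either Kdm3aHA library or the first Kdm3aWT library and rose without the second, as did the count of all genes. With 1 library left out the members' median ran from -0.26 to -0.20, beside -0.18 with all libraries. Psmb5 (-0.13 ± 0.19), Psmb6 (0.26 ± 0.10), Psmd14 (-0.59 ± 0.21), Psmd5 (-0.10 ± 0.13), Psmd9 (0.00 ± 0.09) and Psmd10 (-0.24 ± 0.10) were not called. Psmb8, which passed the filter through the mCherry libraries alone, was not called either. It was at 0.262 and 0 TPM with Kdm3aWT and listed at 0 in both Kdm3aHA libraries, so no fold is given.

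**Figure D5:**
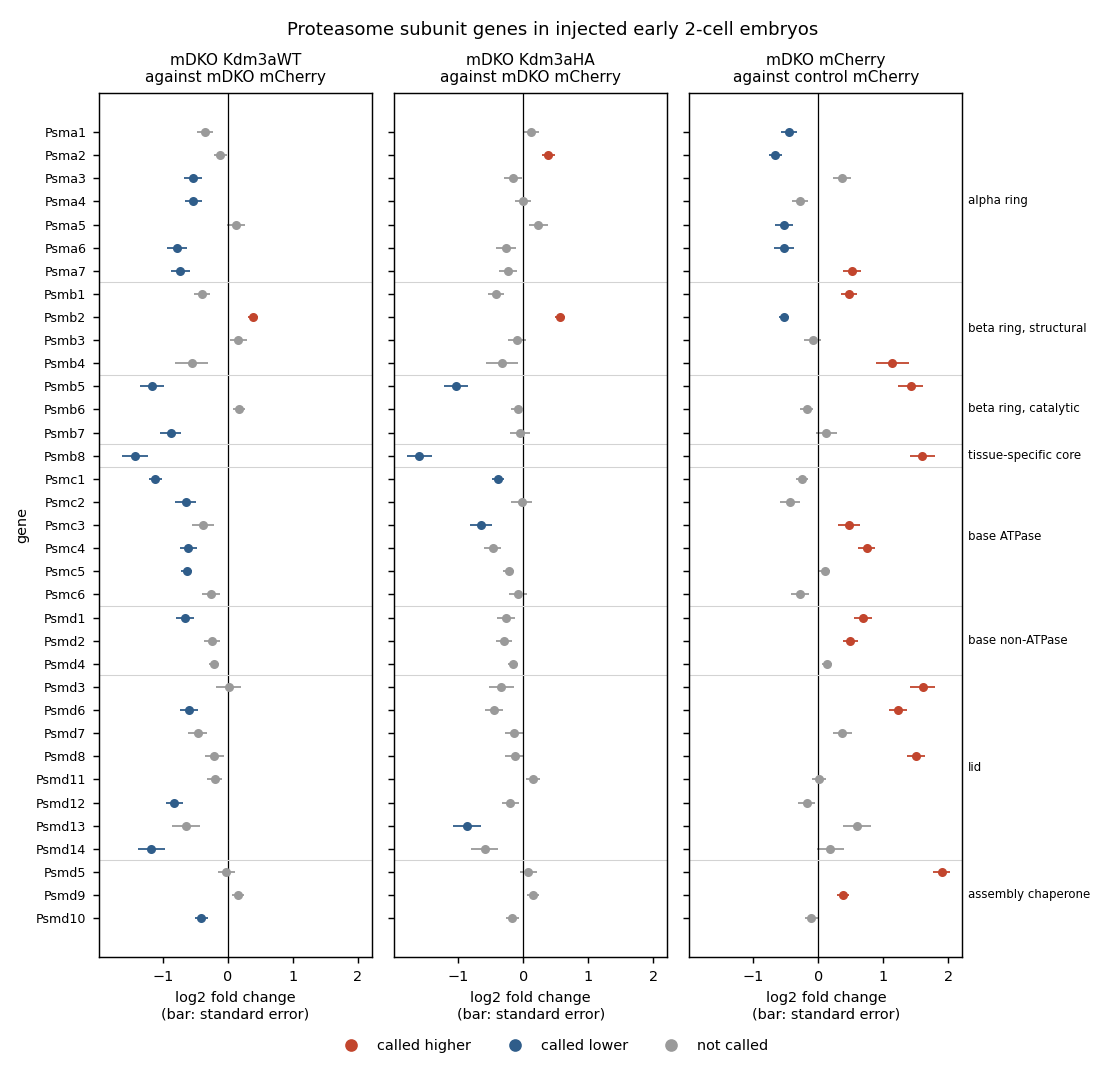
Log2 fold change (points; bars: standard error) of each subunit gene that passed the filter in injected early 2-cell embryos, by role, for Kdm3aWT and Kdm3aHA against mCherry in mDKO and for mDKO against control with mCherry, on 1 shared axis. The cap genes called in the last panel are all higher in mDKO. Psmb8 was listed at 0 in both control mCherry and both Kdm3aHA libraries, so its plotted values depend on the 1 TPM added before the logarithm.

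Of the pathway genes outside the rule, 40 of 43 were tested in the injected E2C fit. Between mDKO and control with mCherry 18 were higher and 8 lower (median 0.37), beside 26.9% and 20% of all genes, led by Adrm1 (2.74 ± 0.16) and the activator genes Psme1 (2.34 ± 0.40) and Psme2 (1.79 ± 0.28). In those mDKO libraries leukocyte and blood markers summed to 466 and 307 TPM, against 14.5 and 8.78 TPM in control. The part of these markers in the Psme1 and Psme2 values was not tested. Kdm3aWT against mCherry gave 0 higher and 6 lower (median -0.20), beside 0.949% and 10.8%, and Kdm3aHA against mCherry 1 higher and 9 lower (median -0.22), beside 1.54% and 9.29%. The COP9 genes had 4 of 9 higher and 2 lower in mDKO with mCherry, led by Gps1 (1.27 ± 0.15) and Cops6 (1.16 ± 0.21).

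Wild-type 4C embryos, all injected and deposited in a separate table, had the highest sums of proteasome message among the 13 groups. No test was made between tables, and here stage and table cannot be told apart. The 39 genes summed to 17246 and 17744 TPM with Kdm3aWT, 19643 and 18167 TPM with Kdm3aHA and 18933 and 18909.9 TPM with mCherry. Psma6 was at 1556 and 1679 TPM with Kdm3aWT, 1777 and 1731 TPM with Kdm3aHA and 1887 and 1971 TPM with mCherry. Psmd7 led the cap with 1399 and 1387 TPM with Kdm3aWT, 1111 and 1447 TPM with Kdm3aHA and 1318 and 1116 TPM with mCherry. Psmb5 was at 509 and 553 TPM, 575 and 534 TPM, and 609 and 409.5 TPM in the same order of groups.

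No member was called in any of the 3 comparisons at 4C by limma, nor was any other of the 9669 genes tested (0% in each). The members at an unadjusted p under 0.05 were 0 for Kdm3aWT against mCherry, 0 for Kdm3aHA against mCherry and 1, Psma8, for Kdm3aWT against Kdm3aHA, of 36 tested. Over all genes the shares at that level were 8.03%, 2.73% and 2.35%. The median of the members was 0.01 for Kdm3aWT against mCherry, beside 0.44 over all genes, and 0.11 for Kdm3aHA against mCherry, beside 0.35. With size-factor scaling, which moves the median of all genes to 0.02 and 0.01, the members' medians were -0.54 and -0.34, so the sign of the members' median turns on the scaling.

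The second 4C mCherry library stood apart in these genes: core genes made up 71.8% of its member TPM, against 63.0% in the first, 60.9% and 61.7% with Kdm3aWT, and 63.7% and 61.1% with Kdm3aHA. Without it the members' medians were -0.19 for Kdm3aWT and -0.02 for Kdm3aHA against mCherry, beside 0.13 and 0.03 over all genes. Kdm3aWT against Kdm3aHA gave a members' median of -0.14, beside 0.08 over all genes. Psmb8, Psmb9 and Psmb11 did not pass the filter at 4C.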

How the data were processed

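The deposited values are TPM, 1 table for each of 3 sets of libraries, used as the authors made them. Tools listed in the submitters' processing notes, without roles, are RSEM 1.3.1, Bowtie2 2.3.4.1, SAMtools 1.9 and STAR 2.7.10b, with mouse build mm10. Strand setting, filters and read depth were not stated there, and TPM gives no counting precision. All 26 columns were matched to samples by title (0 columns unmatched).

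Genes with at least 1 TPM in at least 2 libraries of a fit were tested on log2(TPM + 1) with limma 3.58.1 (R 4.3.3; moderated test with a mean trend, two-sided), with Benjamini-Hochberg adjustment over all genes tested and calls at an adjusted p under 0.05. Genotype effects were fitted within a stage (4 libraries), stage effects and differences of effects in the 12 libraries without injection, and injected groups in 8 (E2C) and 6 (4C) libraries. The fits were tested on simulated data with known changes. Tests stayed within a table. Overlaps and near-identical transcripts (at least 95% identity over 300 bases, BLAST 2.17.0) and promoters come from the reference of GRCm38.p6.

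The members and lists were chosen with earlier results of these data known. Named in each comparison are the catalytic subunits, Psmd14, the tissue-specific core genes, the chaperones, the 3 core and 3 regulatory genes with the largest called change in each direction, and genes called against the majority; other genes named, such as Psma7 and Psmb2 where not called, were chosen after their values were seen. Alternatives were a pseudocount of 0.1, no filter, size-factor scaling, a replicate block, 1 fit of the 12 libraries and leaving out each library. Values of some pathway genes in these lists are not reported here.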

Additional observations from a re-analysis of the deposited data

Results flagged for a closer look

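In 25 members the mDKO effect was not the same at both 2-cell stages: the interaction was past the threshold (limma, adjusted p under 0.05) and is given here as a log2 difference, L2C minus E2C. In the alpha ring these were Psma1 (-0.89), Psma2 (-0.87), Psma3 (-1.72), Psma4 (-1.88), Psma5 (-1.09) and Psma6 (-1.93). In the beta ring they were Psmb1 (-2.22), Psmb2 (-1.13), Psmb4 (-1.59), Psmb5 (-1.76) and Psmb7 (-1.52). Among the ATPases they were Psmc2 (-1.47), Psmc3 (-0.97), Psmc4 (-1.69), Psmc5 (-1.60) and Psmc6 (-0.98). Among the other cap genes they were Psmd1 (-1.10), Psmd6 (-1.46), Psmd7 (-1.34), Psmd8 (-0.84), Psmd11 (-0.93), Psmd12 (-1.47) and Psmd14 (-1.42), with Psmd9 (0.80) and Psmd10 (1.49) in the other direction. Psmc4 was the member whose mDKO effect differed between E2C and MII (0.84, E2C minus MII).

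In 8 members both mDKO libraries lay on one side of both controls at E2C without injection and on the other side with mCherry injection. These are 23.5% of the 34 members tested in both tables, beside 11.6% of all 10424 genes tested in both. Psmd13 is among the 8, but it passed the filter through 1 group alone in each table, which fixed its sides. How many of all genes passed in that way was not counted. The difference between the 2 settings was not tested, since the tables are separate. The log2 fold changes of mDKO against control were 0.34 without injection and -0.66 with mCherry for Psma2, 0.62 and -0.29 for Psma4, 0.42 and -0.53 for Psma5, and 0.32 and -0.28 for Psmc6. They were 0.14 and -0.18 for Psmd12, -0.10 and 0.47 for Psmc3, -0.93 and 0.60 for Psmd13 (which passed the filter only through the controls without injection and only through mDKO with mCherry), and -0.24 and 1.504 for Psmd8. Of these, Psma4 was called without injection, and Psma2, Psma5, Psmc3 and Psmd8 with mCherry. Groups hold 2 libraries, so no sample could be tested as standing apart within its group.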

How the results depend on the processing

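At L2C the count of 27 members called stayed within 1.5 times, and their median within the spread between replicates, under every alternative run, including the replicate block. Numbers of members called that moved by over 1.5 times were, for mDKO against control at MII (0), 1 with size-factor scaling, 1 in the fit of 12 libraries and 10 with a replicate block (8 higher and 2 lower, beside 8.17% and 11.7% of all genes); at E2C (4), 1 without a filter and 8 with the replicate block (5 and 3, beside 9.67% and 13.3%); for E2C minus MII (1), 0 with a pseudocount of 0.1, with size-factor scaling and with the replicate block. With size-factor scaling the calls were 9 for Kdm3aWT and 4 for Kdm3aHA against mCherry and 1 for Kdm3aWT against Kdm3aHA, which was also 1 without a filter. No label pairs libraries of the same replicate number. Deviations of same-numbered libraries correlated across genes at 0.359 at MII, -0.0187 at E2C and 0.0502 at L2C. At MII they thus varied partly together, and whether those pools were paired is unknown.

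Medians with size-factor scaling were -1.11 for L2C minus E2C, 1.28 and 1.33 for E2C against MII in control and mDKO, -0.57 for L2C against E2C in mDKO, -0.24 and -0.067 for Kdm3aWT and Kdm3aHA against mCherry at E2C, and -0.54, -0.34 and -0.24 in the 4C comparisons. Without a filter they were 0.77 and 0.79 for E2C against MII in control and mDKO and 0.41 for L2C against E2C in control.

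Leaving out 1 library gave counts of members called of 1 to 8 for mDKO against control at E2C, 0 to 1 for E2C minus MII, 10 to 18 for mDKO against control with mCherry, 1 to 19 for Kdm3aWT and 1 to 4 for Kdm3aHA against mCherry, and 0 to 13 for Kdm3aWT against Kdm3aHA. Where these counts moved, the number of all genes called moved in the same direction. Medians with 1 library left out ran from -0.092 to 0.14 at MII, -1.07 to -0.88 for L2C minus E2C, 0.024 to 0.20 for E2C minus MII, 0.81 to 0.88 and 0.92 to 1.08 for E2C against MII in control and mDKO, -0.54 to -0.42 for L2C against E2C in mDKO, and 0.12 to 0.29 for mDKO against control with mCherry.

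Genes that turned sign were all uncalled: at MII Psmb7 (-0.44 to 0.52, among them -0.078 without the second mDKO library), Psmd14 (-0.28 to 0.020) and Psmd10 (-0.23 to 0.45, among them -0.13 without the second control library), Psmd14 at E2C (-0.030 to 0.40) and Psmb6 at L2C (-0.35 to 0.0027). Psmb9 at L2C was called with the replicate block (0.96, adjusted p = 0.0200), in the fit of 12 libraries, and without the first control or the second mDKO library. Psmc1 at E2C was not called in the fit of 12 libraries (adjusted p = 0.0835). The causes were not tested. TPM gives no depth, so the precision of low genes such as Psmd13 and Psmb8 is unknown.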
